A study of Homo sapiens with 18 samples.

Results

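A set of 63 genes was present in every wild-type (WT) and XBP1 knockdown (shXBP1) library of A1847 cells and nearly or wholly missing from every CARM1 knockout (koCARM1) library. They are 63 of the 57736 rows of the count table and were chosen by their counts alone: at least 50 in each of the 12 WT and shXBP1 libraries and at most 3 in each of the 6 koCARM1 libraries, with HOX genes set aside. HOXB-AS3 was the 1 row that met both limits and was set aside for its name. The contrast of koCARM1 with the other libraries therefore defines these genes, and it is given here as a description without a test. The knockout and the making of that line cannot be told apart in it.

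The experiment asked how CARM1, an arginine methyltransferase that acts as a transcriptional coactivator, and XBP1, a transcription factor of the unfolded protein response, shape the reaction of ovarian cancer cells to stress of the endoplasmic reticulum (ER). A1847 is an established line of high-grade serous ovarian cancer. WT, koCARM1 and shXBP1 cells were each given vehicle (ctr) or 5 μg/ml tunicamycin (TM) for 8 h, and 3 libraries were made for each of the 6 combinations. Sequencing covered the 3′ ends of polyadenylated RNA, and library totals ran from 9367462 to 13917212 counts. The knockout was made with a lentivirus carrying Cas9 and 1 guide, and the knockdown with a short hairpin RNA from a lentivirus. The study gives puromycin selection for cells infected with lentivirus in general. Controls are labelled wild type, without word on whether they carried a vector, although the study's methods list a scramble control short hairpin RNA. The labels do not say whether the libraries of a group came from separate cultures, although the study describes its experiments in general as biologically independent. The p-values measure the spread between these libraries.

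Tunicamycin blocks the first step of N-linked glycan synthesis, so glycoproteins entering the ER fail to fold. The sensors IRE1, PERK and ATF6 then change transcription and translation, and IRE1 does so by splicing XBP1 mRNA into the form that encodes the active factor. Many of the genes below encode surface or secreted glycoproteins, which pass through the ER.

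The targeted genes were read first. CARM1 had 2136, 2194 and 2389 counts in vehicle-treated WT libraries and 946, 926 and 625 in the koCARM1 libraries with vehicle. With tunicamycin it had 1597, 1695 and 1758 counts in WT and 888, 849 and 883 in koCARM1. The knockout libraries thus kept CARM1 3′ reads at a lower level, and an edited site upstream is not visible in such reads. XBP1 had 661, 587 and 649 counts in WT and 339, 339 and 378 in shXBP1 with vehicle, and 1843, 1790 and 1954 against 979, 839 and 871 with tunicamycin. Of the marker lists, 15 epithelial genes summed to 344 to 505 CPM (counts scaled to library size) in WT, 144 to 226 in shXBP1 and 2040 to 2510 in koCARM1 libraries, and 15 mesenchymal genes to 1730 to 2160, 1850 to 2270 and 3850 to 4670. Only 2 of 15 Müllerian and ovarian markers reached 10 counts in every WT or shXBP1 library, against 6 in koCARM1, and the ovarian cancer antigen MUC16 and AMHR2 had 0 counts in all 18 libraries. Müllerian and ovarian sums overlapped, at 54.5 to 83.4 CPM in WT, 80.3 to 112 in shXBP1 and 62.6 to 89.5 in koCARM1. In WT, shXBP1 and koCARM1, 5, 5 and 6 epithelial markers reached 10 counts in every library. For mesenchymal markers the numbers were 12, 13 and 10. The epithelial genes KRT19 and OVOL2 had 0 counts in all 6 koCARM1 libraries, and CLDN3 in all 12 others. Neural and neuroendocrine sums were 28.1 to 45.5 CPM in WT, 18.6 to 35 in shXBP1 and 130 to 232 in koCARM1. Endothelial sums were 7.86 to 9.11, 5.56 to 9.91 and 15.7 to 23.9, and blood and immune sums overlapped. The koCARM1 libraries thus stood apart in the epithelial, mesenchymal, neural and endothelial sums, and these markers had no part in choosing the 63 genes. The part of this in the absence of those genes was not tested. In the other direction, 196 of the 10568 rows with at least 50 counts in each koCARM1 library had at most 3 in each of the 12 others.

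The rule took 0.627% of the 10210 rows with at least 50 counts in each WT and shXBP1 library, before HOXB-AS3 was set aside. The highest koCARM1 count of those 10210 rows was 0 in 7, 1 in 21, 2 in 22 and 3 in 14, and it lay between 4 and 10 in a further 76. EPS8L1, whose protein belongs to the EPS8 family of actin regulators, was just inside the lower limit with a minimum of 50 counts, and LINC00379 had 51. COL26A1, a collagen gene, and SLC6A10P, a transporter pseudogene, were just outside with 48. At the other limit GUCY1A1, a subunit of the nitric oxide receptor guanylate cyclase, was just inside with a maximum of 3 counts and 11 in all over the 6 koCARM1 libraries. MIR137HG and SYNE4 followed with 10 each. RNU1-59P and PLPP7 were just outside with a maximum of 4.

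**Figure D1:**
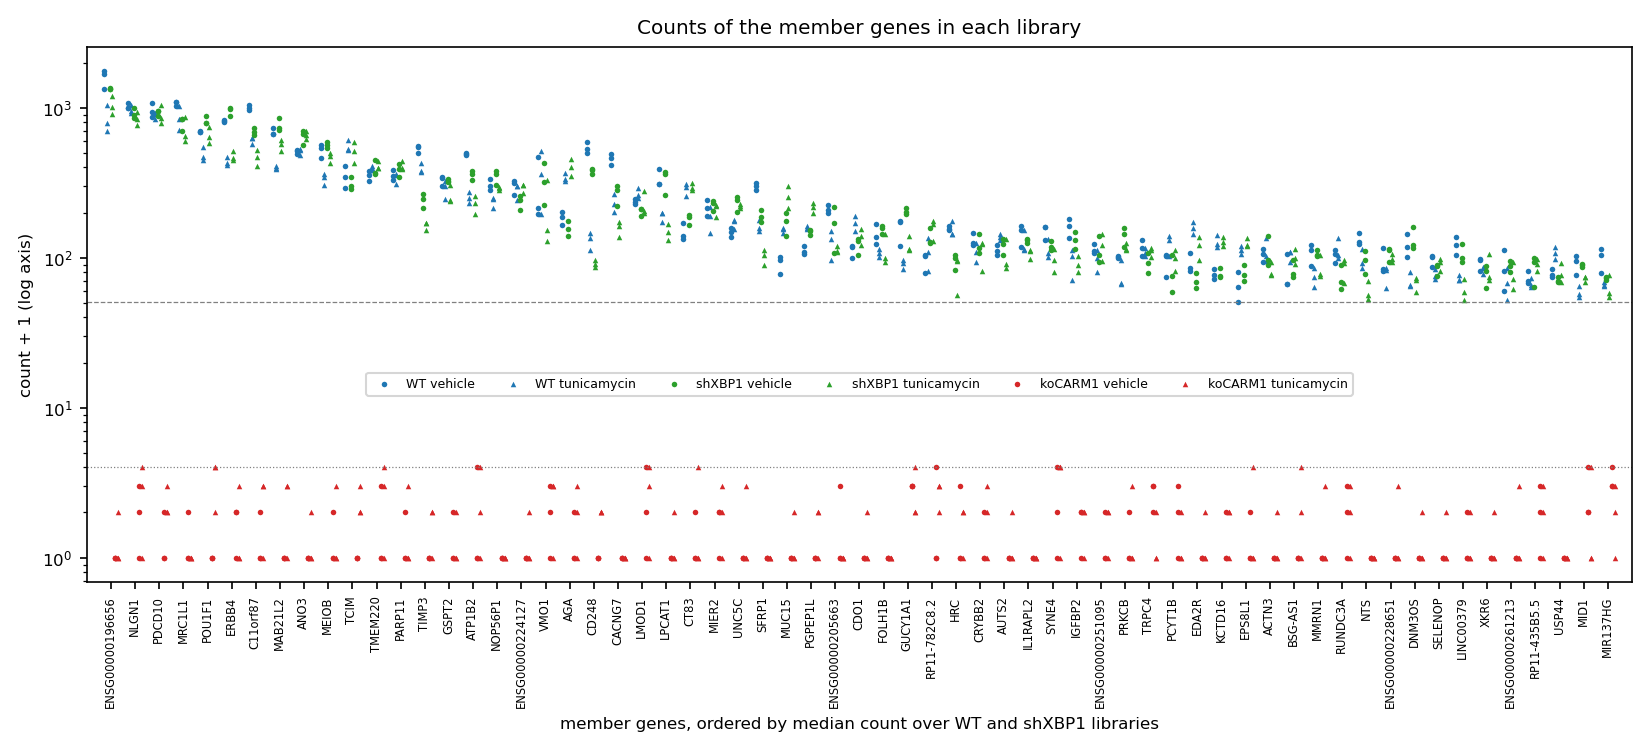
Counts of the 63 genes in each of the 18 libraries (count + 1 on a log axis, genes ordered by their median over the WT and shXBP1 libraries; circles are vehicle and triangles tunicamycin; the dashed and dotted lines mark the limits of 50 and 3 counts). Medians over the 12 WT and shXBP1 libraries ran from 71 to 1263.5 counts, and the koCARM1 points lie at 0 to 3 by the rule.

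Among the 63 genes, 49 were annotated as protein-coding, 9 as long non-coding RNAs and 3 as pseudogenes, and 2 had no entry in the annotation used. Over the 12 WT and shXBP1 libraries their median counts ran from 71 to 1263.5 with a median of 130, and 33 of them were under 150. All 63 passed the filter on low counts, which the limit of 50 counts guarantees. The 6 koCARM1 libraries held 378 values for these genes, of which 240 were 0, 77 were 1, 42 were 2 and 19 were 3. NOP56P1, CACNG7, SFRP1, FOLH1B, IL1RAPL2, NTS and USP44 were the 7 at 0 in all 6. A count of 0 allows up to 3 counts at the same depth, so RNA below that level was not detectable.

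The koCARM1 libraries were not alike in what little they held. With vehicle the 63 genes summed to 24, 38 and 16 counts, and with tunicamycin to 33, 80 and 27, against 13924 to 19732 in the 12 other libraries. The rule caps each koCARM1 count of these genes at 3, and the sums were not scaled to depth. The koCARM1 totals were 13917212, 12953251 and 9367462 with vehicle and 12845064, 13801077 and 13811462 with tunicamycin. Replicate 2 of koCARM1 with tunicamycin stood apart: 47 of the 63 genes had at least 1 count in it, and its 80 counts were 0.484% of the mean sum in the 12 others, where the other 5 ran from 0.0969% to 0.23%. Some abundant genes beside the members also had their highest koCARM1 count in that library. CCND2, which encodes cyclin D2, had 91 counts there, 0.418% of its mean in the 12, and POSTN, which encodes the matrix protein periostin, had 44 counts, 0.422%. In the other 5 koCARM1 libraries these shares were 0.00459% to 0.11% for CCND2 and 0% to 0.115% for POSTN. LHX8, a homeobox gene, had 45 counts there, a larger share of 4.02%, against 0.446% to 2.95% in the other 5. Without that library 82 genes met the limits in place of 63. The source of these few counts was not tested.

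The most abundant of the 63 was a transcribed processed pseudogene without a symbol on chromosome 4 (ENSG00000196656, chr4:114135202-114138326 of GRCh37, minus strand). NLGN1, which encodes the postsynaptic adhesion protein neuroligin 1 (chr3:173114074-174012162, plus strand), had 992, 998 and 1083 counts in WT with vehicle and 2, 0 and 1 in koCARM1 with vehicle. PDCD10, whose protein CCM3 binds germinal centre kinases and is lost in cerebral cavernous malformation (chr3:167401086-167452727, minus strand), had 864, 1069 and 929 against 0, 1 and 0. MRC1L1 (chr10:17851362-17953178, plus strand), which the GRCh37 annotation lists apart from the mannose receptor gene MRC1, had 1091, 1032 and 1091 against 0, 1 and 0. No library of either group came near the other in any of these genes, as the rule requires. POU1F1, the pituitary transcription factor PIT1, ERBB4, the neuregulin receptor kinase, C11orf87, a membrane protein of little known function, MAB21L2, a regulator of eye and body wall development, ANO3, of the anoctamin family, and MEIOB, a DNA-binding protein of meiotic recombination, completed the 10 with the highest mean level.

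By what they encode, the 63 fell into groups drawn up after the members were known. There were 8 receptors and adhesion proteins of the cell surface, among them NLGN1, ERBB4, the netrin receptor UNC5C, EDA2R of the TNF receptor family, CD248 (endosialin, a glycoprotein of stromal cells) and the mucin MUC15. A further 8 were channels, transporters or other membrane proteins, such as TRPC4, ANO3, CACNG7 and ATP1B2, the β2 subunit of the sodium pump. Secreted and extracellular proteins numbered 7: TIMP3, SFRP1, IGFBP2, NTS, SELENOP, MMRN1 and VMO1. There were 12 enzymes and signalling proteins, 6 transcription and nuclear proteins, 6 proteins of muscle and cytoskeleton, and 2 other coding genes, the cancer-testis antigen CT83 and the lens crystallin CRYBB2. The remaining 14 were non-coding RNAs, pseudogenes or rows without an entry. Of 37 lists of pathways, families and cell type markers, 3 held a member: CACNG7 among ion channel genes, TMEM220 among TMEM genes and SFRP1 among genes of the WNT and Frizzled families. The lists were matched by gene symbol and do not hold every gene of a kind. TRPC4 was thus not on the ion channel list, nor CT83 on the list of cancer-testis antigens.

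Several of these genes have close copies, and reads could be shared or assigned between copies. MRC1L1 held 600 to 1091 counts in the 12 libraries and its copy MRC1 0 to 65. NOP56P1 is a pseudogene of NOP56, whose own counts ran from 1983 to 3566 over all 18 libraries, koCARM1 included. Exons of FOLH1B and MEIOB lay for 75.6% and 77.7% of their bases under exons of another gene on the same strand, so their counts carry that uncertainty. On the opposite strand the share was 58.6% for MAB21L2 and 37.4% for SELENOP.

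Among the long non-coding RNAs, 2 are hosts of microRNAs, and both were among the missing genes. MIR137HG carries miR-137, and DNM3OS carries miR-199a and miR-214, microRNAs known from neural and mesenchymal tissue. Their main mature sequences are shown because they are the products these hosts are known for, with the seed (bases 2 to 8) in capitals, as RefSeq gives them with GRCh38.p14.
hsa-miR-137-3p: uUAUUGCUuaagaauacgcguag
hsa-miR-199a-5p: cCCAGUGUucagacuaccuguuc
hsa-miR-199a-3p: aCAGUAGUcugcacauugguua
hsa-miR-214-3p: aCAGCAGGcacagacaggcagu
The mature microRNAs were not measured in these libraries. The host MIR137HG had 103, 113 and 78 counts in WT and 2, 3 and 2 in koCARM1 with vehicle, and DNM3OS 116, 143 and 100 and 0, 0 and 0.

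The genes were spread over 18 chromosomes. Chromosomes 1 and 4 held 7 each, and 11, 19 and X held 6 each. Set against the number of rows with at least 50 counts, the share was highest on chromosome 4, at 1.94% of 361, and on X, at 1.73% of 347. Of the 61 genes with a position, 12 lay within 1 Mb of another, in 6 pairs. On chromosome 11, MUC15 lies inside ANO3 on the opposite strand, and the start coordinates of CD248 and ACTN3 lie 231901 bases apart, ACTN3 being the α-actinin of fast muscle fibres. MIER2, a nuclear corepressor, and BSG-AS1 lie near one end of chromosome 19, and MMRN1, which encodes multimerin 1, lies on chromosome 4 beside a non-coding RNA without a symbol. The other pairs were RP11-782C8.2 with RP11-435B5.5 and a pair of non-coding RNAs without symbols, both on chromosome 1. With a window of 500 kb the number was 12 as well.

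Genes next to the members were low in koCARM1 more often than genes at large. Of the 115 nearest tested genes on either side, 33 had a mean level in koCARM1 at least 4 times below that in the 12 other libraries (28.7%), against 7.94% of all 16731 tested genes with a position that are no members. With 3 genes on each side the share was 22.3%. Both nearest neighbours were low for 7 members, 1 of them for 23 and neither for 31. These shares describe the same contrast that chose the members, and no test was made of them. They were not split by level, and some low neighbours had few counts anywhere. C2CD4C and TMEM236 had means of 0.52 and 0.634 CPM in the 12 libraries. Other low neighbours overlap a member, such as TMEM220-AS1 and UNC5C-AS1, and MRC1 was counted as a neighbour of MRC1L1.

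Some of these neighbours were abundant genes. CCND2, the nearest tested gene on 1 side of PARP11 on chromosome 12 at 396323 bases, had 14857 to 28219 counts in the WT libraries and 1 to 91 in koCARM1. POSTN, next to the cation channel gene TRPC4 on chromosome 13, had 10272 to 12803 and 0 to 44. LHX8, a LIM homeobox gene, overlaps 1 of the non-coding pair on chromosome 1 and had 780 to 1356 in WT and 5 to 45 in koCARM1. Some neighbours were higher in koCARM1. CRACR2A, on the other side of PARP11 at 26228 bases, had a mean of 23.7 CPM there against 2.64 in the 12 other libraries. SHISA4, next to LMOD1, had 18.7 against 1.72, and NTN4, on 1 side of USP44, 8.27 against 0.0118. SERPINI1, which encodes neuroserpin, starts at base 167453031 of chromosome 3 on the plus strand, just beyond the start of PDCD10, which runs the other way. It had 26 to 65 counts in the 12 libraries and 0 in all 6 koCARM1 libraries, short of the limit of 50. PDCD10 was thus missing together with the gene that faces away from it.

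**Figure D2:**
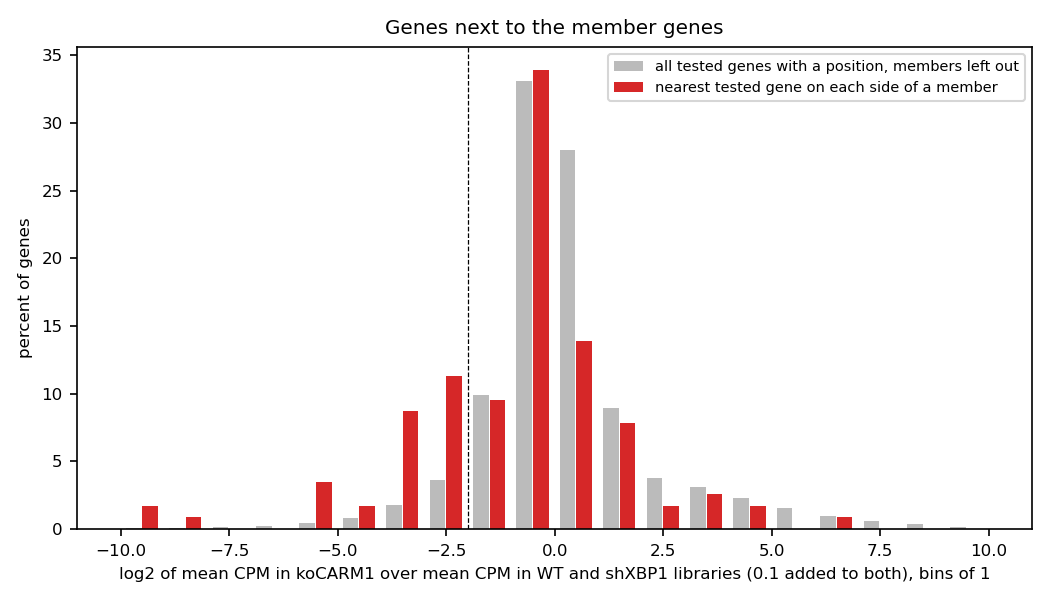
Share of genes (percent, y axis) by the log2 ratio of mean CPM in koCARM1 over the WT and shXBP1 libraries (x axis, bins of 1, 0.1 added to both means), for the nearest tested gene on each side of a member (red, n = 115) and for all 16731 tested genes with a position (grey). Left of the dashed line, which marks a level 4 times lower, lie 27.8% of the neighbours and 7.19% of all such genes (28.7% and 7.94% without the added 0.1), and some bins there hold no neighbour.

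Promoters of 38 of the 63 genes were found in the RefSeq table of GRCh38.p14, as 250 bases before and 50 after the start. Their median GC share was 56.2%, with quartiles of 49.2% and 63.5%, and the ratio of observed to expected CpG had a median of 0.634. Among 7922 other genes with at least 50 counts in each of the 12 libraries, these medians were 65.7% and 0.861. The ratio was at least 0.6 in 20 of the 38 promoters (52.6%), against 87.9% of those other genes and 49% of all 27305 promoters in the table. The 2 sets also differed in level, with a median count of 468 in the other genes and 130 in the members. AUTS2, UNC5C, AGA, CDO1, MIER2 and PRKCB had CpG-rich promoters, and ANO3, SELENOP, NTS, MMRN1 and HRC had CpG-poor ones.

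Motifs of the unfolded protein response were searched on both strands of these windows. The UPRE letters TGACGTGG were found in 1 of the 38 promoters (2.63%), against 1.05% of the other genes and 0.795% of all promoters. Its core ACGTCA, which overlaps the UPRE, was in 4 (10.5% against 12.9% and 8.32%). The CARE letters TGATGNAA, bound by ATF4 with C/EBP partners, were in 1 (2.63% against 1.54% and 3.67%). Windows of 4 genes that lead the results below are printed: AGA and CT83, the largest rises with tunicamycin in WT cells, LPCAT1, which fell and holds the 1 UPRE match, and TIMP3, the largest difference between shXBP1 and WT cells. Each covers the 250 bases before the start, placed on GRCh37 by an exact and single match, and runs 5′ to 3′ in the direction of the gene. Capitals mark the letters TTACATCA in CT83, a CARE match on the minus strand, and CCACGTCA in LPCAT1, which holds the UPRE on the minus strand and the ACGTCA core.
AGA, chr4:178363592-178363841, minus strand: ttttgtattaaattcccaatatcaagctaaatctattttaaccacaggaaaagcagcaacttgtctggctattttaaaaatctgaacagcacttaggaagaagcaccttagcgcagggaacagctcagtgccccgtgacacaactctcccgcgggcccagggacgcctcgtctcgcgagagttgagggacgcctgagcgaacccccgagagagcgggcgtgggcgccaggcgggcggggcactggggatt
CT83, chrX:115594138-115594387, minus strand: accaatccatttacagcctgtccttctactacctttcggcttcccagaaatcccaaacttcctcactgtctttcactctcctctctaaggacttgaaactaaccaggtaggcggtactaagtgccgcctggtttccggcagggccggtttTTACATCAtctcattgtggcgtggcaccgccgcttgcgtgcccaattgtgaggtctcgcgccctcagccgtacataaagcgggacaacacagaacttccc
LPCAT1, chr5:1524076-1524325, minus strand: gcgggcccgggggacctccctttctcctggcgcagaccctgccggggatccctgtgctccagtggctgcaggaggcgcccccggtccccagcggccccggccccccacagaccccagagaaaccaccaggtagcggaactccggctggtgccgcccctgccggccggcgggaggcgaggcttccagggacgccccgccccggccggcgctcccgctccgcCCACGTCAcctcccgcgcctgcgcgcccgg
TIMP3, chr22:33197441-33197690, plus strand: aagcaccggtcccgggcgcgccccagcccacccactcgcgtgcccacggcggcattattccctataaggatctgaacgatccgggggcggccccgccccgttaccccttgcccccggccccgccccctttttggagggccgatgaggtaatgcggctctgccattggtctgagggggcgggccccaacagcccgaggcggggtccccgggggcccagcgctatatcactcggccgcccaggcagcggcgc
A match of letters is a description and not a binding site, and no match says only that these letters are not in the window.

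Tunicamycin changed 34 of the 63 genes in WT cells, 16 of them upward and 18 downward at a false discovery rate (FDR) of 5% by edgeR's quasi-likelihood test. That is 54% of the genes, beside 41.9% of all 17317 genes tested and 57.3% of the other genes with at least 50 counts in the 12 libraries. Upward calls took 25.4% against 22% and 30.6%, and downward calls 28.6% against 19.9% and 26.7%. The median log2 fold change was -0.06 over the 63 and 0.03 over those other genes, and the share called lay between the backgrounds. Lists of the unfolded protein response moved as a whole: all 28 tested genes of a PERK and ATF4 list, all 24 of an XBP1s list and all 15 of an ATF6 list were higher, and none of the 63 genes is on those lists. With a change of at least 1.5-fold asked besides, 10 genes rose and 10 fell.

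CD248 fell most. Its level was 38.7, 39.1 and 39.7 CPM in the 3 WT libraries with vehicle and 9.23, 11.1 and 11 with tunicamycin (log2 fold change -1.89, standard error 0.10, adjusted p = 1.98e-10). In shXBP1 cells it went from 29.4, 25.6 and 26.9 to 6.7, 7.55 and 7.45 CPM (log2 fold change -1.93, standard error 0.11, adjusted p = 1.9e-09). In both genotypes every treated library lay far below every untreated one. Endosialin, its product, is a heavily glycosylated surface protein of fibroblasts and pericytes.

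Receptor, channel and transporter genes were among the other falls. ERBB4 was at 61.8, 61.3 and 55 CPM in WT with vehicle and 34.3, 35.5 and 35.6 with tunicamycin (log2 fold change -0.74, standard error 0.075, adjusted p = 5.21e-07). ATP1B2 went from 38.4, 35.4 and 32.7 to 19.3, 20.6 and 20.7 CPM (log2 fold change -0.8, standard error 0.091, adjusted p = 2.27e-06). CACNG7, which encodes an accessory subunit of calcium channels and AMPA receptors, went from 35.7, 30.6 and 32.6 to 16.6, 18.8 and 20.2 CPM (log2 fold change -0.81, standard error 0.10, adjusted p = 5.16e-06). The groups did not overlap in any of these genes. C11orf87 also fell, changing by -0.54 on the log2 scale (standard error 0.068, adjusted p = 6.56e-06). Over the 8 surface receptors and adhesion proteins as a group, 3 rose, 2 fell and 3 did not pass the test in WT cells, and over the 8 channels and other membrane proteins 2 rose and 3 fell. Among all 63 genes 25.4% rose and 28.6% fell, and these small groups were not tested against those shares.

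Of the 7 genes for secreted or extracellular proteins, 3 passed the threshold in WT cells, and all 3 fell. SFRP1, a secreted WNT antagonist, was at 21.8, 22 and 21.2 CPM with vehicle and 13.1, 14.7 and 11.3 with tunicamycin in WT cells (log2 fold change -0.72, standard error 0.11, adjusted p = 5.92e-05). IGFBP2, which binds insulin-like growth factors, changed by -0.58 on the log2 scale (adjusted p = 0.00651), and TIMP3, an inhibitor of matrix metalloproteinases, by -0.28 (adjusted p = 0.00877). The treated and untreated WT libraries did not overlap in these 3 genes. Of the 7 secreted or extracellular proteins, 3 fell in WT cells, 0 rose and 4 did not pass, and the same counts held in shXBP1 cells, where SFRP1, TIMP3 and NTS fell. NTS encodes the peptide neurotensin. The falls of NTS and TIMP3 in shXBP1 cells no longer passed in 4 and 3 of 6 fits that omitted 1 library each. Downward calls took 28.6% of all 63 genes and 26.7% of the other genes with at least 50 counts in WT cells. In shXBP1 cells these shares were 23.8% and 26.7%. The group of 7 was not tested against them.

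LPCAT1, an acyltransferase that makes saturated phosphatidylcholine, was the largest fall among the enzymes. It was at 24, 22.8 and 25.9 CPM with vehicle and 14.4, 16.3 and 15 with tunicamycin in WT cells (log2 fold change -0.66, standard error 0.10, adjusted p = 5.59e-05), and at 19.5, 26.5 and 25.3 and 10.4, 14.6 and 10.8 in shXBP1 cells (log2 fold change -1.01, standard error 0.14, adjusted p = 3.54e-05). Treated libraries lay below untreated ones in both genotypes, and its promoter is the one with the UPRE letters shown above. GUCY1A1 fell too (log2 fold change -0.62, adjusted p = 0.00313). MAB21L2 and POU1F1, which act in transcription and development, fell by modest amounts. MAB21L2 went from 52, 49.3 and 48.9 to 32.2, 32.6 and 31 CPM in WT cells (log2 fold change -0.64, standard error 0.074, adjusted p = 2.64e-06). POU1F1 had a log2 fold change of -0.35 (adjusted p = 0.00222). The host RNA DNM3OS was at 8.97, 10.5 and 6.7 CPM with vehicle and 6.57, 5.36 and 4.86 with tunicamycin (log2 fold change -0.63, adjusted p = 0.0121), and without WT vehicle replicate 2 or WT tunicamycin replicate 3 it no longer passed. The abundant pseudogene of chromosome 4 (ENSG00000196656) fell as well, from 129.7, 98.3 and 117 to 65.4, 85.7 and 53.5 CPM (log2 fold change -0.74, standard error 0.13, adjusted p = 0.000176).

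AGA rose in both genotypes. It encodes aspartylglucosaminidase, the lysosomal enzyme that cuts N-glycans from the asparagine that carried them. Its level was 12.8, 13.6 and 13.5 CPM in WT with vehicle and 27.9, 26.8 and 27.7 with tunicamycin (log2 fold change 1.06, standard error 0.095, adjusted p = 1.37e-07). In shXBP1 cells it went from 11.7, 12.3 and 9.69 to 31.9, 30.6 and 33.3 CPM (log2 fold change 1.5, standard error 0.10, adjusted p = 1.76e-08). Every treated library lay above every untreated library of its genotype. Of the other enzymes, CDO1, the cysteine dioxygenase that starts taurine synthesis, went from 9.13, 7.22 and 7.83 to 14.1, 12.3 and 14.3 CPM in WT cells (log2 fold change 0.77, standard error 0.13, adjusted p = 0.00021). In shXBP1 cells its log2 fold change was 0.33 (adjusted p = 0.103), which did not pass although treated and untreated libraries did not overlap.

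CT83, which encodes a cancer-testis antigen and lies on the X chromosome, had the largest rise in WT cells. It was at 10.2, 10.2 and 11.3 CPM with vehicle and 25.6, 21.3 and 22.3 with tunicamycin (log2 fold change 1.13, standard error 0.11, adjusted p = 4.79e-07). EDA2R, the receptor of ectodysplasin A2, went from 6.5, 7.81 and 5.36 to 14.3, 11.9 and 11.9 CPM (log2 fold change 0.97, standard error 0.16, adjusted p = 8.28e-05), and EPS8L1 from 4.87, 3.68 and 5.29 to 9.9, 8.67 and 8.51 (log2 fold change 0.97, standard error 0.17, adjusted p = 0.000193). The treated libraries lay above the untreated ones in all 3 genes. MUC15, a mucin of the cell surface, rose by 0.92 on the log2 scale (standard error 0.14), KCTD16, an auxiliary subunit of GABA-B receptors, by 0.88 (standard error 0.14), and TCIM, a regulator of WNT signalling, by 0.85 (standard error 0.086). Their adjusted p-values were 5.64e-05, 9.18e-05 and 6.18e-07, and all 3 rose in shXBP1 cells as well.

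**Figure D3:**
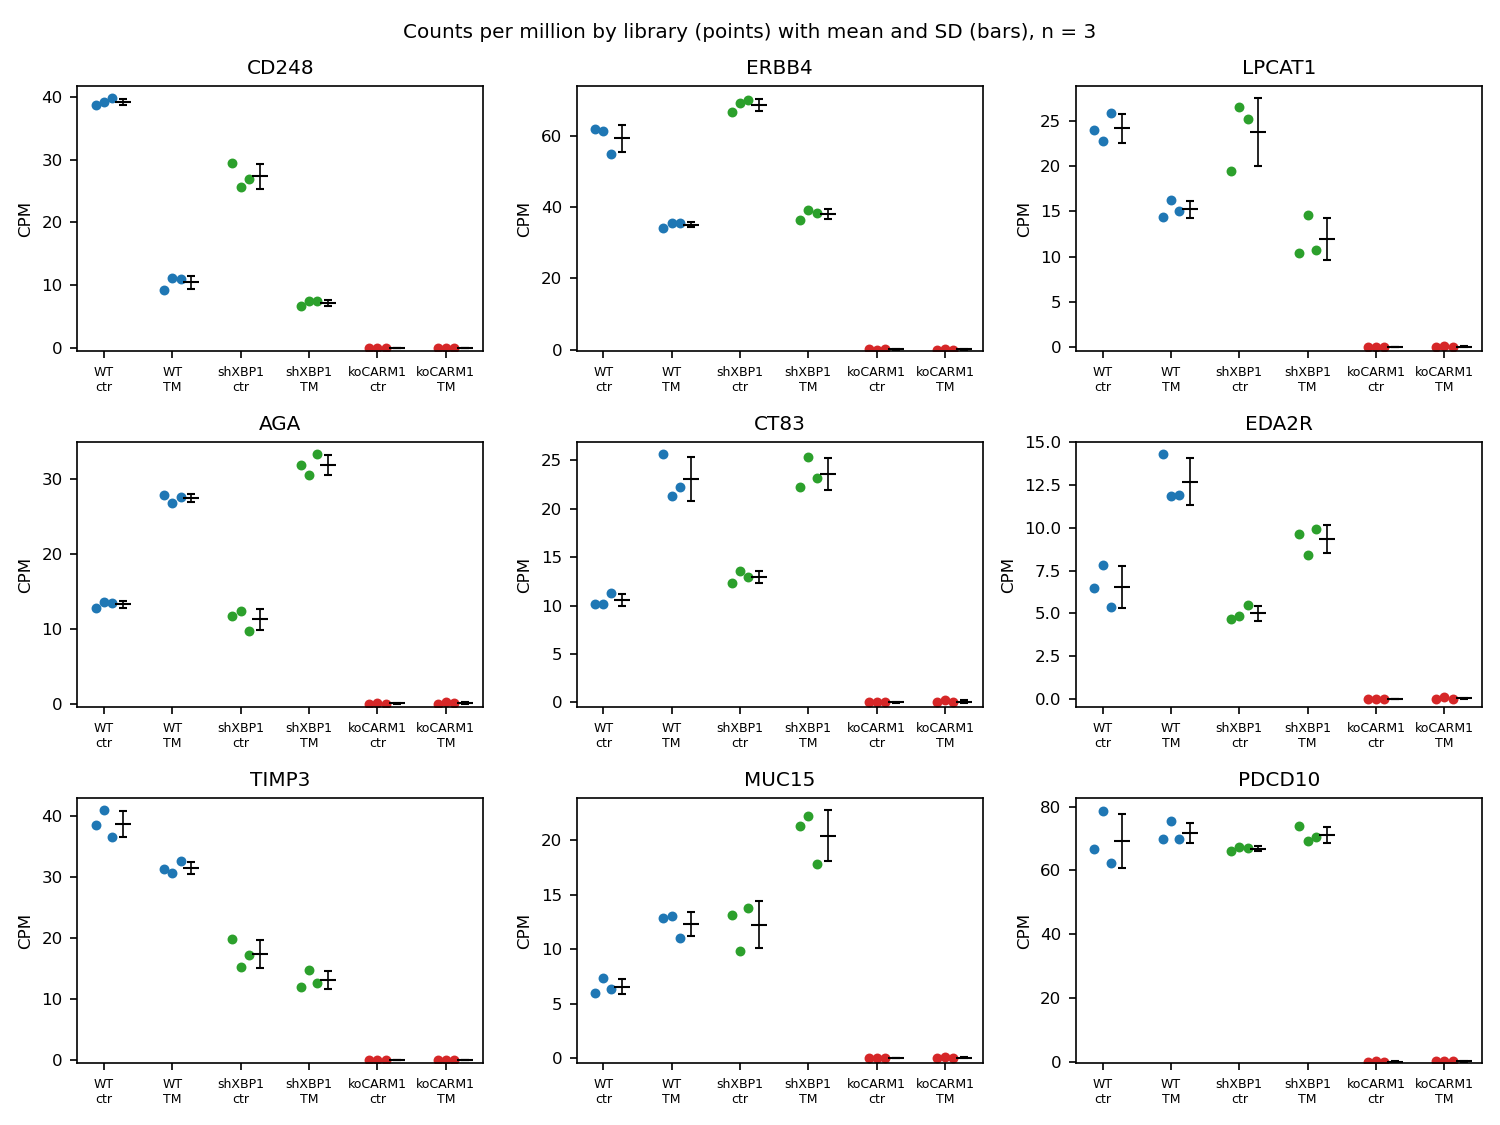
CPM (y axis, from 0) of 9 of the genes by group (x axis; points are the 3 libraries, bars the mean ± SD), with WT in blue, shXBP1 in green and koCARM1 in red. CD248, ERBB4 and LPCAT1 lie lower and AGA, CT83, EDA2R and MUC15 higher with tunicamycin in both WT and shXBP1 cells, TIMP3 lies lower in shXBP1 than in WT libraries, and PDCD10 stays between 62.2 and 78.8 in both.

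In shXBP1 cells 12 of the 63 genes rose with tunicamycin and 15 fell, 42.9% in all beside 38.3% of all genes tested and 53.9% of the others with at least 50 counts. Rises took 19% against 19.2% and 27.2%, and falls 23.8% against 19% and 26.7%. No WT library enters that comparison. The 2 genotypes had 10 rises and 14 falls in common, none of the genes passed in opposite directions, and 26 passed in neither. Shared calls were not counted over the other genes, so these numbers have no background beside them. VMO1 passed in opposite directions under some alternatives: with a replicate block it changed by 0.47 in WT cells (adjusted p = 0.0035) and -0.59 in shXBP1 cells (adjusted p = 0.0334), and with no filter on low counts by 0.45 (adjusted p = 0.000104) and -0.57 (adjusted p = 2.02e-06). The log2 fold changes of the 63 genes correlated across genes with Pearson's r = 0.888 and Spearman's rho = 0.856, and 55 of 63 had the same sign. Over the 10147 other genes with at least 50 counts r was 0.922 and rho 0.882, and 8606 had the same sign. Genes are not independent replicates, and these correlations are descriptive.

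**Figure D4:**
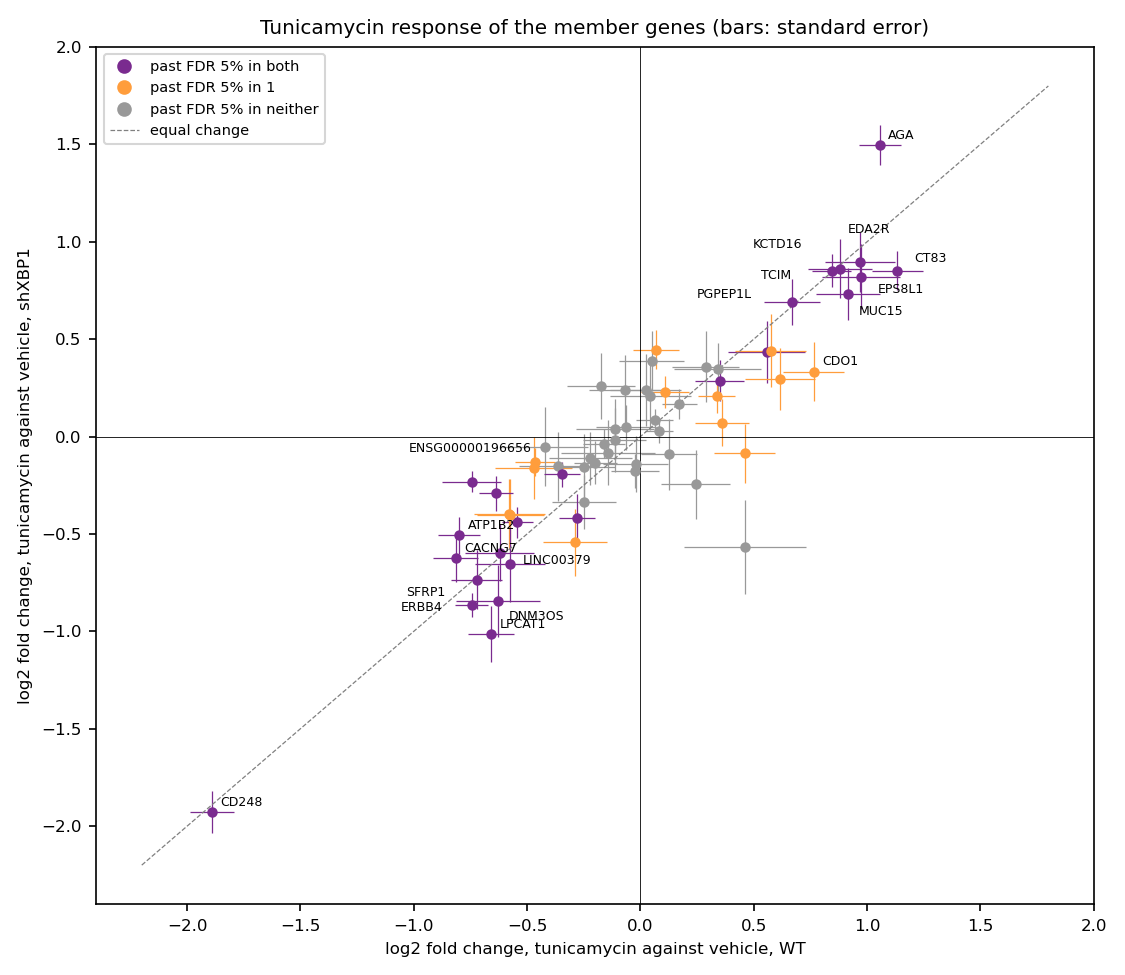
Log2 fold change with tunicamycin in WT cells (x axis) and in shXBP1 cells (y axis) for the 63 genes, with standard errors as bars; purple marks genes past an FDR of 5% in both, orange in 1 and grey in neither, and the dashed line marks equal change. CD248 lies alone at -1.89 and -1.93, and AGA lies above the line at 1.06 and 1.5.

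Whether the response differed between WT and shXBP1 cells was tested as an interaction term over the 4 groups. None of the 63 genes passed an FDR of 5% in edgeR, and DESeq2 gave 0 as well. In edgeR 2.04% of all genes tested passed (0.364% above and 1.67% below 0), as did 3.28% of the others with at least 50 counts (0.581% and 2.7%). Before adjustment 8 of the 63 had p under 0.05 (12.7%), beside 13.6% of all genes tested and 18.2% of the others with at least 50 counts. AGA had the lowest adjusted p, with an interaction term of 0.45 (standard error 0.13, adjusted p = 0.102). MAB21L2 had 0.35 (adjusted p = 0.167) and the pseudogene of chromosome 4 (ENSG00000196656) had 0.52 (adjusted p = 0.122). MAB21L2 passed when shXBP1 vehicle replicate 1 was left out, with a term of 0.48, and the pseudogene passed when WT tunicamycin replicate 2 was left out, with 0.72. VMO1, whose product resembles a protein of the egg coat, had the largest term at -1.02 (adjusted p = 0.311), and its libraries were uneven, at 15.1, 15.6 and 31.3 CPM in WT with vehicle and 16.2, 29.5 and 39.1 with tunicamycin.

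Some of these genes differed between shXBP1 and WT cells, a contrast in which the knockdown and the making of the line cannot be told apart. With vehicle 3 were higher and 9 lower in shXBP1 than in WT cells, 19% of the 63 beside 5.1% of all genes tested and 6.81% of the others with at least 50 counts. Higher calls took 4.76% against 2.07% and 3.02%, and lower calls 14.3% against 3.03% and 3.79%. With tunicamycin 9 were higher and 11 lower, 31.7% beside 15.5% and 22.5%. Here higher calls took 14.3% against 6.99% and 10.6%, and lower calls 17.5% against 8.55% and 11.9%. The limit of 50 counts in each of these libraries leaves out any gene that fell below it in either genotype. The comparisons use different libraries at each treatment. In both, 3 genes were higher (ANO3, MUC15 and UNC5C) and 7 lower (TIMP3, CACNG7, HRC, SFRP1, C11orf87, CD248 and MRC1L1), and of the 22 genes that passed under either treatment 20 had the same sign under both. These comparisons share their libraries with the tunicamycin comparisons above. With tunicamycin, leaving out shXBP1 replicate 3 left 5 higher and 7 lower genes, and leaving out WT replicate 3 left 5 lower. Among the 10, some calls did not hold with fewer libraries, whichever of several was left out. ANO3 with vehicle no longer passed in 5 of 6 fits that omitted 1 library each, and UNC5C, MRC1L1 and CD248 with tunicamycin in 4, 4 and 3 of 6.

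TIMP3 differed most. It was at 38.5, 40.9 and 36.6 CPM in WT and 19.8, 15.3 and 17.2 in shXBP1 cells with vehicle (log2 fold change -1.16, standard error 0.10, adjusted p = 4.85e-06). With tunicamycin it was at 31.4, 30.6 and 32.6 and 11.9, 14.8 and 12.7 (log2 fold change -1.27, standard error 0.10, adjusted p = 4.28e-07). No shXBP1 library reached a WT library under either treatment. HRC, a calcium-binding protein of the sarcoplasmic reticulum, was at 11.8, 12 and 10.4 CPM in WT and 6.17, 7.38 and 6.95 in shXBP1 with vehicle (log2 fold change -0.74, standard error 0.13, adjusted p = 0.00446), and its log2 fold change was -0.93 with tunicamycin (adjusted p = 0.00122). CACNG7 was at 35.7, 30.6 and 32.6 CPM in WT and 16.6, 19.9 and 21 in shXBP1 cells with vehicle (log2 fold change -0.79, standard error 0.10, adjusted p = 0.000282). SFRP1 differed by a log2 fold change of -0.68 with vehicle (adjusted p = 0.000645) and -0.67 with tunicamycin (adjusted p = 0.0109). WT and shXBP1 libraries did not overlap in HRC, CACNG7 or SFRP1 with vehicle. C11orf87 differed by -0.54 with vehicle (adjusted p = 0.000125).

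MUC15 was higher in shXBP1 cells. It was at 5.96, 7.37 and 6.36 CPM in WT and 13.1, 9.79 and 13.8 in shXBP1 with vehicle (log2 fold change 0.89, standard error 0.15, adjusted p = 0.00322), and at 12.9, 13 and 11 and 21.3, 22.2 and 17.8 with tunicamycin (log2 fold change 0.73, standard error 0.12, adjusted p = 0.000589). ANO3, the gene in which MUC15 lies on the other strand, was higher by 0.32 (adjusted p = 0.0253) and 0.35 (adjusted p = 0.00526). UNC5C was at 10.5, 11.6 and 9.91 CPM in WT and 18.1, 18 and 14.1 in shXBP1 with vehicle (log2 fold change 0.64, standard error 0.13, adjusted p = 0.0076). The groups did not overlap with vehicle in MUC15, ANO3 or UNC5C. Another 6 genes were higher past the threshold with tunicamycin and not with vehicle, and the 4 with the largest differences were PRKCB, a protein kinase C, at 0.6 (adjusted p = 0.0319), the non-coding RNA RP11-782C8.2 at 0.54 (adjusted p = 0.0321), MAB21L2 at 0.51 (adjusted p = 0.000201) and MEIOB at 0.47 (adjusted p = 0.00149). Of these, PRKCB and RP11-782C8.2 no longer passed in 4 of the 6 fits that omitted 1 library each. NTS and VMO1 were among the lowest with tunicamycin, at -0.73 (adjusted p = 0.00768) and -0.83 (adjusted p = 0.0453), and VMO1 no longer passed in 4 of its 6 such fits.

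**Figure D5:**
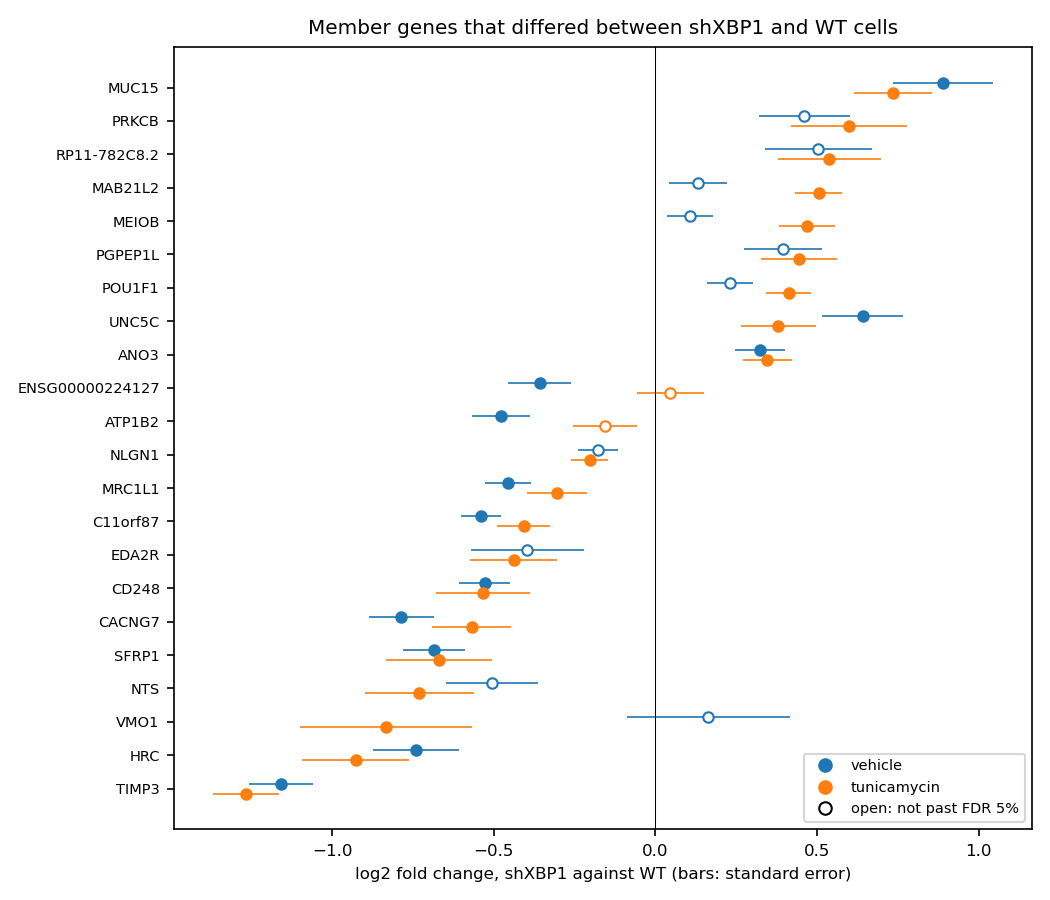
Log2 fold change of shXBP1 against WT cells (x axis, bars are standard errors) for the 22 genes past an FDR of 5% under either treatment (y axis), with vehicle in blue and tunicamycin in orange; open points did not pass. TIMP3 is lowest at -1.16 and -1.27, MUC15 is highest at 0.89 and 0.73, and VMO1 and a non-coding RNA without a symbol change sides between treatments.

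Other genes showed no response that passed in any of these comparisons. This held for 19 of the 63, PDCD10 among them. PDCD10 was at 66.8, 78.8 and 62.2 CPM in WT with vehicle, 69.9, 75.3 and 69.9 with tunicamycin, 66, 67.4 and 67.1 in shXBP1 with vehicle and 73.9, 69.2 and 70.4 with tunicamycin. All 12 values lay between 62.2 and 78.8, and treated and untreated libraries overlapped in WT but not in shXBP1 cells (log2 fold change 0.08, adjusted p = 0.28). NLGN1 differed by -0.2 between shXBP1 and WT with tunicamycin (adjusted p = 0.0261), the smallest that passed between shXBP1 and WT cells, and it no longer passed in 5 of the 6 fits that omitted 1 library each. MRC1L1 had a tunicamycin log2 fold change of -0.16 in WT cells (adjusted p = 0.181) and -0.04 in shXBP1 cells (adjusted p = 0.75), neither of which passed.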

How the data were processed

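RNA was measured in 18 libraries of A1847 cells. According to the study's methods, the authors made 3′ mRNA libraries, aligned single reads to hg19 with bowtie2 and estimated counts per Ensembl gene with RSEM, and the deposited values are expected counts in whole numbers without normalization. The sources give different RSEM versions, and the Ensembl release is not given in the sources used here. The labels gave each library's genotype and treatment.

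The 63 genes and the lists and role groups were chosen with earlier results of these data known. Genes named are the most abundant ones, the largest changes past the threshold in each comparison, those next to the limits of the rule, neighbours within 1 Mb and members of lists; the pseudogene of chromosome 4 without a symbol and the neighbouring genes were chosen after their values were seen. A row that the naming rule takes is not reported here. Symbols and GRCh37 positions came from GENCODE lifted to GRCh37, with 55501 genes matched. In edgeR 4.0.16 (R 4.3.3), genes were filtered by filterByExpr with a minimum count of 10 over all 18 libraries, leaving 17317. TMM factors and quasi-likelihood tests used only the groups compared, and p-values were adjusted by Benjamini-Hochberg over all genes tested at an FDR of 5%. Standard errors were derived from each fold change and its F statistic. CPM used TMM factors over 18 libraries, save for the marker sums, which were scaled to library totals alone. The fits were tested on simulated data. DESeq2 1.42.0, other scalings and filters, an FDR of 1%, a minimum fold of 1.5, a block for the replicate number and each library left out in turn were the alternatives. Libraries held 9367462 to 13917212 counts, and counting intervals would cover counting error only. No pair of replicates was a duplicate, with chi-square per degree of freedom of 1.84 to 6.89.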

Additional observations from a re-analysis of the deposited data

How the results depend on the processing

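Counts are of the 63 genes. With at least 1.5-fold asked, 10 rose and 10 fell with tunicamycin in WT cells, 8 fell in shXBP1 cells, 4 were lower in shXBP1 than in WT with vehicle, and 2 were higher and 5 lower with tunicamycin. An FDR of 1% left 5 higher and 5 lower in the last comparison. Without a filter the interaction had 2 genes higher (MAB21L2 and the pseudogene of chromosome 4) and 1 lower (VMO1), and 5 genes were higher in shXBP1 with vehicle, where 1 fit over all WT and shXBP1 libraries gave 6. Leaving out each library in turn gave 14 to 16 rises and 16 to 18 falls in WT, 9 to 13 and 12 to 14 in shXBP1, and 0 to 1 and 0 to 0 for the interaction, where MAB21L2 passed without shXBP1 vehicle replicate 1 and the pseudogene without WT tunicamycin replicate 2. For shXBP1 against WT it gave 2 to 3 higher and 8 to 9 lower with vehicle, and 5 to 10 and 5 to 9 with tunicamycin, the lowest without shXBP1 replicate 3 (5 higher, 7 lower) and WT replicate 3 (5 lower). The rule itself gave 63 to 82 genes so, 134 with a limit of 20 counts, 27 with 100, 7 with 0 counts in koCARM1, 136 with up to 10 there and, added after the data were seen, 64 with HOXB-AS3. The cause was not tested beyond fewer samples, stricter thresholds or wider limits. Replicate numbers did not pair the libraries: deviations of libraries with the same number correlated between -0.048 and 0.039 over genes. With the replicate block 17 rose and 18 fell in WT cells, 11 and 16 in shXBP1, 0 and 0 in the interaction, and 3 higher and 8 lower in shXBP1 than in WT with vehicle, and 9 and 11 with tunicamycin, where VMO1 no longer passed and another gene did. Of 1302 values of called genes under alternatives, 1119 kept direction and call, 183 kept direction only and 0 reversed. The FDR of 1% and the 1.5-fold minimum reused the reported fold changes, so direction could not reverse there. The other alternatives shared most libraries with the reported fits. Over all 63 genes and comparisons 67 of 93 called values passed under every alternative that kept an FDR of 5% and asked no fold. Depth bears on which genes the rule reaches, as the numbers at limits of 20 and 100 counts show.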
